A study of Mus musculus with 12 samples.

Results

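Cytochrome P450 enzymes of families 2 and 4 were followed in the kidneys of 12 mice by polyA RNA sequencing. The members were the protein-coding genes named Cyp2 or Cyp4 followed directly by a letter and a number, which gave 68 of the 21848 protein-coding genes in the table of counts, 49 in family 2 and 19 in family 4. A further 2 protein-coding genes were left out by the rule and are not analysed here. Each of the 3 groups, Ctrl, Model and YHY, held 4 male mice on the BKS background, each mouse giving 1 library. Ctrl mice were db/+ heterozygotes (labelled db/m) with random blood glucose under 11.1 mmol/L. Model and YHY mice were db/db animals of the strain BKS. Cg-Dock7m +/+ Leprdb/JNju, which lack a working long leptin receptor, and were taken in at 16.7 mmol/L or above. Animals arrived at 8 weeks of age and were 13 weeks old at collection. YHY mice were gavaged daily for 4 weeks with a water extract of the herbal decoction YHY (6.24 g/mL, 50 µL for each 10 g), and Ctrl and Model mice with as much purified water. Which of the study's doses the sequenced YHY mice received is not named beyond that concentration. The labels give the tissue as kidney, and the series design as renal cortex.

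Libraries held 24415658 to 33276634 counts. Transcripts of the mitochondrial genome took 18.4 to 22.7% of the counts in Ctrl, 41.2 to 58.9% in Model and 53.8 to 64.6% in YHY mice, so that fewer counts were left for nuclear genes in the db/db groups. Levels are given as CPM, counts scaled to a common library size with TMM factors, and are compared between genes only as CPM per kilobase of the deposited gene length. In bulk tissue, fewer cells of a type and less RNA per cell cannot be told apart. Kidney markers were present: the 7 proximal tubule markers summed to 5961 to 9159.8 CPM in Ctrl, 4708 to 5869 in Model and 2977 to 5824 in YHY mice.

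P450 enzymes are haem proteins of the endoplasmic reticulum that insert oxygen into lipids, steroids and foreign compounds, with electrons passed on from P450 reductase and cytochrome b5. In the kidney they lie mainly in the proximal tubule. Cyp4a and Cyp4f enzymes hydroxylate fatty acids, arachidonic acid among them, near the methyl end, whereas Cyp2c and Cyp2j enzymes include epoxygenases that turn arachidonic acid into epoxides with effects on vessels and salt transport. Cyp2e1 oxidises ethanol and other small molecules. In male mouse kidney, Cyp2e1, Cyp2j5 and Cyp4a12a are known to depend on androgen.

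Of the 68 members, 11 had no count in any mouse, and 26 had counts but too few to be tested, 9 of these with at most 3 counts in any mouse. The test was run on 31 members, 19 of family 2 and 12 of family 4, among 17431 genes. Summed over all members, the level was 3789.5, 4606, 4187 and 3886 CPM in Ctrl mice 1 to 4, 2771, 1774, 1966 and 1489 CPM in Model mice, and 1374, 1938, 2050.4 and 4072 CPM in YHY mice. The 4 Ctrl mice lay above the 4 Model mice, and YHY 4 alone among the YHY mice reached the Ctrl level. The 12 most abundant members made up most of these sums: in order of mean CPM per kilobase they were Cyp2e1, Cyp2a4, Cyp4a10, Cyp2j5, Cyp4a31, Cyp2d9, Cyp4a14, Cyp2a5, Cyp2d26, Cyp4a12a, Cyp2j11 and Cyp2c23. In Ctrl mice the level was 562 ± 148 CPM per kilobase for Cyp2e1, 374 ± 45.6 for Cyp2a4 and 366 ± 59.2 for Cyp2j5 (SD, n = 4). Those 3 stood above the next gene, Cyp4a10, at 129 ± 91.8 CPM per kilobase, while Cyp2a4 and Cyp2j5 did not differ beyond their spread. In YHY mice the order was different, with Cyp4a10 at 257 ± 152 CPM per kilobase, Cyp4a14 at 122 ± 124 and Cyp4a31 at 120 ± 55.3, levels that did not differ beyond their spread.

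**Figure D1:**
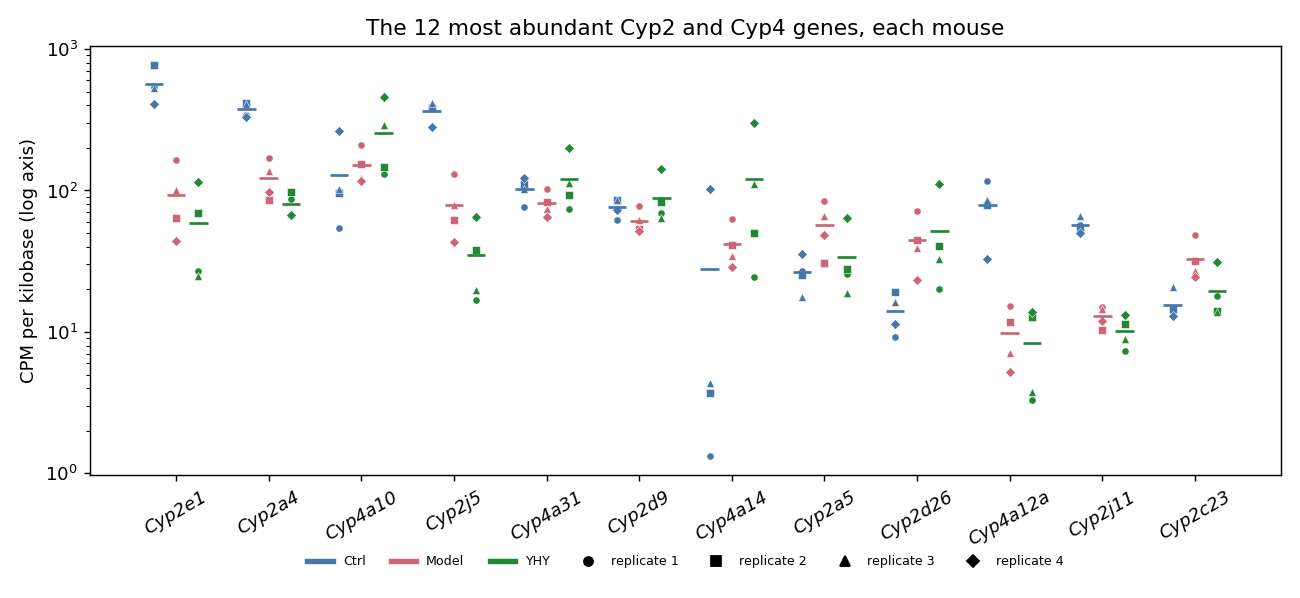
Level of the 12 most abundant Cyp2 and Cyp4 genes in each mouse, as CPM per kilobase on a log axis; symbols mark replicate numbers, colours the groups, and bars the group means. Cyp2e1, Cyp2a4, Cyp2j5, Cyp2j11 and Cyp4a12a lie lower in the Model mice than in each Ctrl mouse, and Cyp4a14 spreads widely within Ctrl and YHY.

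Reads cannot always be given to 1 of several like genes. Of the 50-base stretches of the reference transcripts, Cyp4a12a shared 48.9% with Cyp4a12b, Cyp2a4 shared 38.0% and Cyp2a5 37.0% with other genes, Cyp4a10 29.8%, Cyp4a31 20.6% and Cyp2c69 54.3%. Cyp2e1 shared 3.87% and Cyp4a14 0.235%, and the Cyp2j members at most 2.32%. Cyp2d9 shared 21.8% and Cyp4f16 17.4%. How reads that fit several genes were counted is not stated, so the split within Cyp2a, within Cyp4a12 and for Cyp2c69 is uncertain. With smaller shared parts, the levels of Cyp4a10, Cyp4a31, Cyp2d9 and Cyp4f16 carry the same uncertainty.

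Model was compared with Ctrl to ask how the families differ in diabetic kidney. The abundant Cyp2e1, Cyp2a4, Cyp2j5, Cyp2j11 and Cyp4a12a were lower in Model, and Cyp2j6, Cyp2j7, Cyp2j8, Cyp2j9, Cyp2d22, Cyp2d26, Cyp2c23, Cyp2c69, Cyp2a5, Cyp2u1, Cyp4f13 and Cyp4f16 were higher. That made 5 of 31 tested members lower, beside 18.5% of all genes tested, and 12 higher, beside 19.6%, with 14 not called. By TMM scaling the members' median log2 fold change was 0.52, beside 0.04 for all genes tested. With library size alone in place of TMM factors, the median of all genes moved by -0.43, 21.4% in place of 51.5% of all calls were higher, and 6 members were higher and 8 lower. Upper-quartile factors moved the all-gene median by 0.10 and left the same 17 members called. The sign of each of the 17 was the same under these scalings, although Cyp2a5, Cyp2c23, Cyp2j6, Cyp2u1, Cyp4f13 and Cyp4f16 were not called with library size alone.

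**Figure D2:**
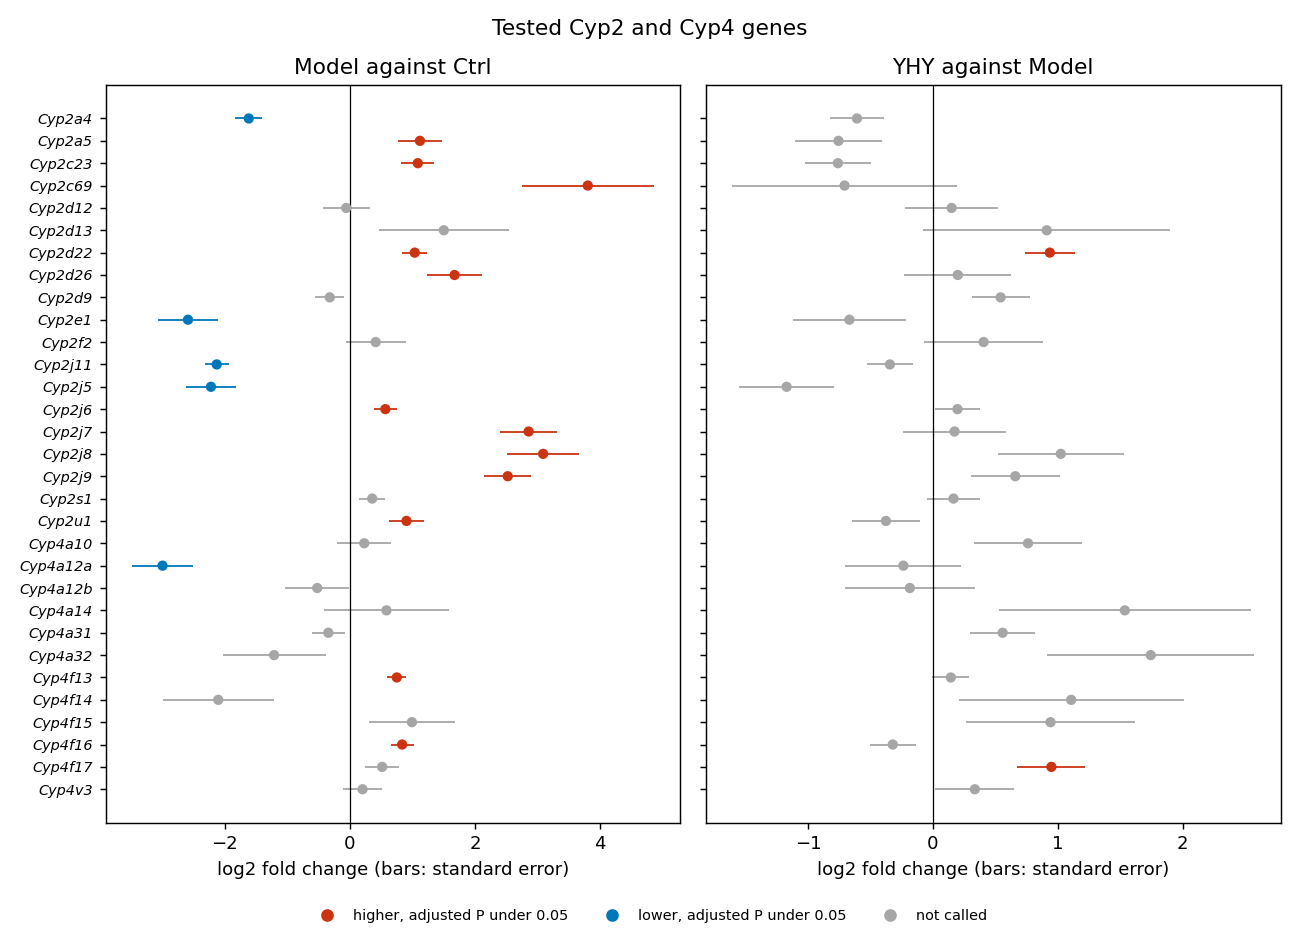
Log2 fold change of the 31 tested Cyp2 and Cyp4 genes for Model against Ctrl (left) and YHY against Model (right), 4 mice a group, with bars for the standard error; the 2 axes have different ranges. On the left 12 genes are higher and 5 lower at adjusted P under 0.05, and on the right 2 are higher; 6 of the 12 are not called with library size alone.

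Cyp2e1 was the most abundant member in Ctrl mice and by mean CPM per kilobase over all mice. In Model mice Cyp4a10 had 151 ± 43.2 CPM per kilobase (SD), Cyp2a4 122 ± 38.6 and Cyp2e1 93.5 ± 53.5. These means did not differ beyond their spread. In YHY mice Cyp4a10 had 257 ± 152 CPM per kilobase and Cyp2e1 58.8 ± 42.2. Cyp2e1 stood at 1162, 1651, 1150.2 and 885 CPM in Ctrl and 357, 138, 218 and 94.1 CPM in Model mice. It stood at 58.2, 149.7, 53.5 and 246 CPM in YHY mice. No Model mouse came near the lowest Ctrl mouse, and Model and YHY mice overlapped. The log2 fold change was -2.59 ± 0.47 (SE) in Model against Ctrl (adjusted P = 0.000577, lower in 4 of 4 mice), a 6.004-fold lower level. In YHY against Model it was -0.67 ± 0.45 (adjusted P = 0.352).

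Cyp2a4, which hydroxylates testosterone, stood at 595, 727, 710.3 and 571 CPM in Ctrl, 295, 149, 238 and 168 CPM in Model, and 152, 169.6, 119 and 117 CPM in YHY mice. Ctrl lay above Model without overlap, and the YHY mice lay in and below the lower part of the Model range. Its log2 fold change was -1.61 ± 0.22 in Model against Ctrl (adjusted P = 5.51e-05) and -0.61 ± 0.21 in YHY against Model (adjusted P = 0.0705), the second called by DESeq2 (adjusted P = 0.0347), without a filter (0.0489), without Model 2 (0.0384) and at an unadjusted P under 0.05 with a fold change over 1.2. Its close relative Cyp2a5, a coumarin hydroxylase, went the other way, with 56.3, 52.0, 36.5 and 74.1 CPM in Ctrl, 174, 63.9, 138 and 101 CPM in Model, and 53.0, 58.0, 39.0 and 132 CPM in YHY mice. Model 2 lay within the Ctrl range. The log2 fold change of 1.121 ± 0.35 (adjusted P = 0.0196) was not called without Ctrl 3 (adjusted P = 0.0727), Model 1 (0.0784) or Model 3 (0.0527), and that in YHY against Model, -0.76 ± 0.35, was called without YHY 4 (adjusted P = 0.0116), without a filter (0.0349), with the 9 mice behind the authors' means (0.0395) and by the same unadjusted limits. Cyp2a4 and Cyp2a5 summed with the rest of their subfamily gave -1.09 in Model against Ctrl (adjusted P = 0.00137).

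The Cyp2j genes split within a single cluster on chromosome 4, all on the minus strand. In order of their GRCm39 start, Cyp2j7 (96083434) was higher in Model, Cyp2j11 (96182745) lower, Cyp2j8 (96332833), Cyp2j6 (96404375) and Cyp2j9 (96456666) higher, and Cyp2j5 (96517010) lower. Cyp2j5, an epoxygenase of the proximal tubule, had 904.5, 892, 979 and 658 CPM in Ctrl, 306, 145, 185 and 101 CPM in Model, and 39.3, 88.7, 46.7 and 153 CPM in YHY mice. Ctrl mice lay far above the others, and 3 of 4 YHY mice lay below each Model mouse. The log2 fold change was -2.22 ± 0.39 in Model against Ctrl (adjusted P = 0.000436) and -1.17 ± 0.38 in YHY against Model (adjusted P = 0.0534). The second was called without Ctrl 4 (adjusted P = 0.0492), Model 4 (0.037) or YHY 4 (0.00585). With all mice kept it was called with library size alone (adjusted P = 0.0478), upper-quartile factors (0.0469), no filter (0.00212) or at least 10 counts in every mouse (0.0482), and also with the 9 mice behind the authors' means (0.0149) and at an unadjusted P under 0.05 with a fold change over 1.2. Cyp2j11 had 109, 102, 127 and 96.0 CPM in Ctrl, 28.8, 19.8, 27.6 and 23.0 CPM in Model, and 14.0, 21.8, 17.0 and 25.4 CPM in YHY mice, a tight and complete separation of Ctrl from Model (log2 fold change -2.13 ± 0.19, adjusted P = 2.25e-06).

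Of the Cyp2j genes that were higher, Cyp2j9 had 5.79, 12.7, 6.66 and 3.21 CPM in Ctrl, 25.5, 43.5, 44.9 and 48.8 CPM in Model, and 35.3, 78.1, 46.2 and 97.3 CPM in YHY mice. Each Model mouse lay above each Ctrl mouse, with a log2 fold change of 2.52 ± 0.38 (adjusted P = 0.000126), and YHY overlapped Model (0.66 ± 0.36, adjusted P = 0.238). Cyp2j7 (2.86 ± 0.45, adjusted P = 0.000192) and Cyp2j8 (3.09 ± 0.57, adjusted P = 0.000616) also had each Model mouse above each Ctrl mouse, with at most 12.6 CPM of Cyp2j7 and 4.57 CPM of Cyp2j8 in a Model mouse, and without Ctrl 2 the value of Cyp2j8 was 3.85. YHY overlapped Model for Cyp2j7, whereas each YHY mouse lay above each Model mouse for Cyp2j8 (4.999 to 11.7 against 2.48 to 4.57 CPM), which was not called (1.02 ± 0.50, adjusted P = 0.194). Cyp2j6 was at 35.2 to 42.6 CPM in Ctrl and 48.5 to 66.6 CPM in Model, with a log2 fold change of 0.57 ± 0.18 (adjusted P = 0.0223) that was not called without Ctrl 1, 3 or 4 or Model 3 or 4 (adjusted P 0.0505 to 0.0826). Summed, the Cyp2j genes gave -1.66 (adjusted P = 0.000202).

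**Figure D3:**
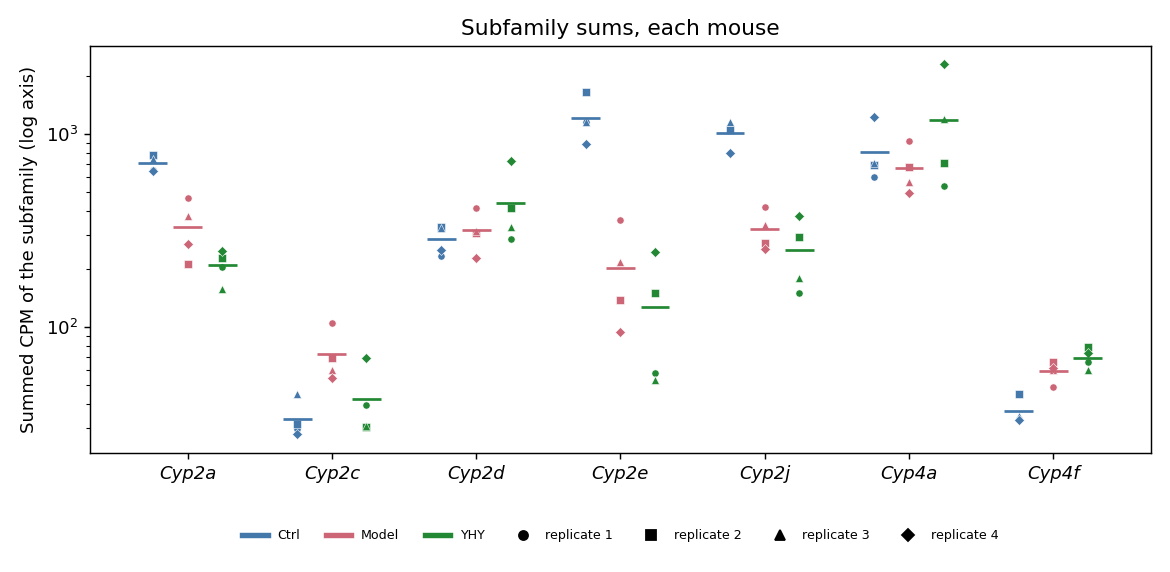
CPM summed over the members of each of 7 subfamilies in each mouse, on a log axis; symbols mark replicate numbers, colours the groups, and bars the group means. Cyp2a, Cyp2e and Cyp2j sums are lower in Model than Ctrl, also with library size alone, and Cyp2c and Cyp4f sums are higher, which library size alone no longer calls (log2 fold changes of 0.71 and 0.26); YHY 4 is the highest mouse for Cyp4a and Cyp2d.

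Of the 15 Cyp2c members 2 had enough counts to be tested. Cyp2c23, an arachidonic acid epoxygenase of the kidney, had 29.4, 31.4, 44.7 and 27.9 CPM in Ctrl, 104, 68.0, 58.0 and 52.9 CPM in Model, and 38.8, 30.5, 30.04 and 67.6 CPM in YHY mice. Model lay above Ctrl without overlap, and 3 of 4 YHY mice lay within the Ctrl range. The log2 fold change was 1.09 ± 0.27 in Model against Ctrl (adjusted P = 0.00463) and -0.76 ± 0.27 in YHY against Model (adjusted P = 0.07). The second was called by DESeq2 (adjusted P = 0.0346), without a filter (0.0108), with the 9 mice (0.0189), without YHY 4 (0.00649) and at an unadjusted P under 0.05 with a fold change over 1.2. Cyp2c69 rested on few counts: 0, 8, 2 and 0 in Ctrl, 38, 14, 21 and 28 in Model, and 18, 0, 20 and 26 in YHY mice. Its log2 fold change of 3.80 ± 1.06 (adjusted P = 0.0102) was 5.65 without Ctrl 2. No Ctrl mouse reached 10 counts of Cyp2c69, so the size of its fold change is uncertain. With at least 10 counts in every mouse the calls of Cyp2c69 and Cyp2j8 were lost, and 10 members in place of 12 were higher in Model.

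Among the Cyp2d genes, Cyp2d22 rose in both comparisons. It had 13.9, 21.8, 14.8 and 19.6 CPM in Ctrl, 36.7, 41.0, 32.7 and 33.4 CPM in Model, and 45.6, 84.6, 60.1 and 84.9 CPM in YHY mice. The 3 groups did not overlap, Ctrl being lowest and YHY highest. The log2 fold change was 1.04 ± 0.20 in Model against Ctrl (adjusted P = 0.000922) and 0.94 ± 0.20 in YHY against Model (adjusted P = 0.00791), and both were called under each of the 22 alternatives run for single genes. Cyp2d26 had 16.5, 34.5, 29.0 and 20.4 CPM in Ctrl, 129, 80.0, 70.3 and 41.4 CPM in Model, and 35.9, 72.4, 59.0 and 200.2 CPM in YHY mice, apart in Model against Ctrl (1.68 ± 0.44, adjusted P = 0.00733) with the YHY mice reaching below and above the Model range and above each Ctrl mouse. Cyp2d9, the most abundant of the subfamily, lay between 137 and 228 CPM in the Ctrl and Model mice and reached 376 CPM in YHY 4, with log2 fold changes of -0.32 ± 0.23 (adjusted P = 0.292) and 0.54 ± 0.23 (adjusted P = 0.135). The first was called with library size alone (-0.73, adjusted P = 0.0265) and with the 9 mice behind the authors' means (-0.45, adjusted P = 0.0398), and the second at an unadjusted P under 0.05 with a fold change over 1.2.

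The Cyp4a genes did not move as a group. Cyp4a12a, the male-predominant fatty acid hydroxylase, had 282, 192, 209 and 80.0 CPM in Ctrl, 37.2, 28.5, 17.3 and 12.6 CPM in Model, and 8.05, 30.9, 9.12 and 33.4 CPM in YHY mice. Ctrl 4 was the lowest Ctrl mouse and still lay above each Model mouse (log2 fold change -2.99 ± 0.49, adjusted P = 0.000252). Cyp4a14 had 3.46, 9.55, 11.3 and 266 CPM in Ctrl, 164, 107, 90.2 and 74.4 CPM in Model, and 64.0, 131, 291 and 778 CPM in YHY mice. Ctrl 4 alone stood above the Model mice, so that the log2 fold change was 0.59 ± 0.99 (adjusted P = 0.675) with it and 3.70 (adjusted P = 0.00106) without it. With all mice and a block for the replicate number it was 2.86 (adjusted P = 0.0326), but the labels tie those numbers to no pairing of mice. With the 9 mice behind the authors' means it was -0.10 (adjusted P = 0.951). Cyp4a10 had 115, 202, 216 and 555 CPM in Ctrl, 445, 327, 259 and 246 CPM in Model, and 277, 309, 612 and 966 CPM in YHY mice. Again Ctrl 4 was the highest Ctrl mouse, and YHY 3 and YHY 4 lay above all Model mice. Neither Cyp4a10 (0.23 ± 0.43 and 0.76 ± 0.44) nor Cyp4a14 in YHY against Model (1.54 ± 1.01, adjusted P = 0.34) was called, and the same held for Cyp4a31 (-0.34 ± 0.26 and 0.56 ± 0.26) save in Model against Ctrl with library size alone (-0.76, adjusted P = 0.0398) and in YHY against Model at an unadjusted P under 0.05 with a fold change over 1.2.

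**Figure D4:**
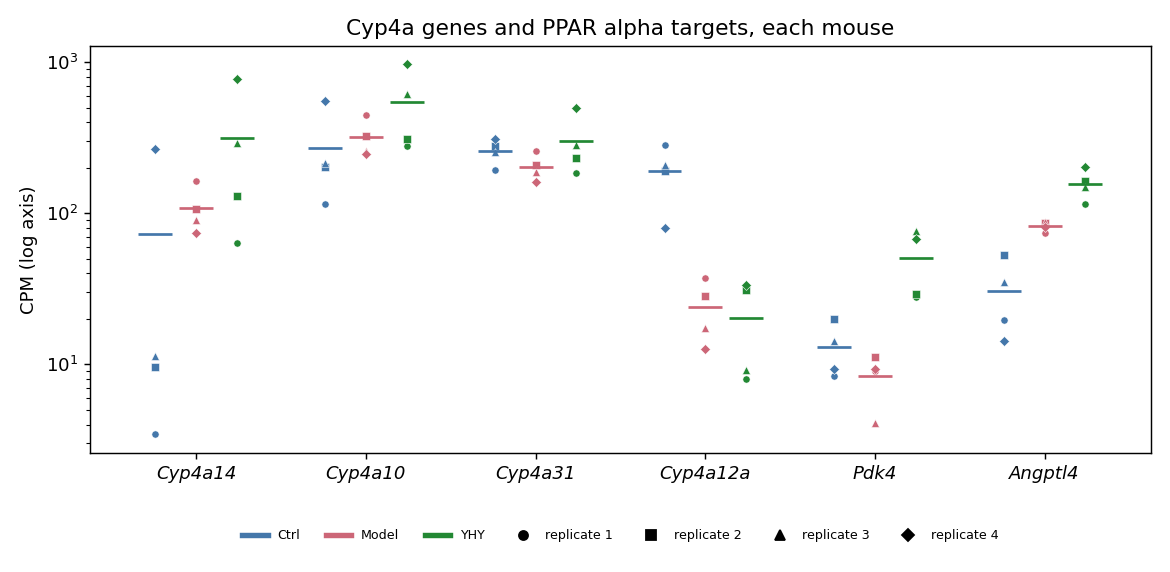
CPM of 4 Cyp4a genes and 2 targets of the nuclear receptor PPAR alpha in each mouse, on a log axis; symbols mark replicate numbers, colours the groups, and bars the group means. Ctrl 4 is the highest Ctrl mouse for Cyp4a14, Cyp4a10 and Cyp4a31 but not for Cyp4a12a, Pdk4 or Angptl4; the genes shown were chosen after their values were seen.

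The Cyp4f genes code for enzymes that hydroxylate leukotrienes and other fatty acids. Cyp4f13 had 23.2, 31.6, 25.3 and 19.8 CPM in Ctrl, 35.9, 44.9, 42.7 and 44.7 CPM in Model, and 45.5, 51.4, 44.1 and 44.6 CPM in YHY mice, with Model above Ctrl in each mouse (0.75 ± 0.15, adjusted P = 0.00109). Cyp4f16 was at 4.43 to 5.56 CPM in Ctrl and 7.50 to 9.62 CPM in Model (0.84 ± 0.18, adjusted P = 0.00217). Cyp4f14, chosen after its values were seen, had 1.42, 1.62, 0.784 and 0.911 CPM in Ctrl, 0.322, 0.286, 0 and 0.470 CPM in Model, and 0.229, 1.88, 0.0744 and 0.271 CPM in YHY mice. Ctrl lay above Model without overlap. Its log2 fold change of -2.10 ± 0.88 was not called (adjusted P = 0.0715), but was called lower by DESeq2 (adjusted P = 0.0414), with library size alone (0.0237), without a filter (0.0381), with the 8 mice compared (0.0159), with a replicate block (0.0402) and without YHY 2 (0.0307). The value in YHY against Model was 1.11 ± 0.90 (adjusted P = 0.454), and -0.50 without YHY 2. Cyp4f17 had 3.77, 6.49, 3.94 and 5.96 CPM in Ctrl, 5.12, 9.38, 7.35 and 7.05 CPM in Model, and 10.95, 17.7, 8.78 and 18.3 CPM in YHY mice. YHY 3 lay within the Model range and the other YHY mice above it. The log2 fold change in YHY against Model was 0.95 ± 0.27 (adjusted P = 0.0316), and the call was lost without Model 1 (adjusted P = 0.0859), Model 3 (0.0802), Model 4 (0.0701), YHY 2 (0.0863) or YHY 4 (0.0721), and with the 9 mice behind the authors' means (0.66, adjusted P = 0.136). With those 9 mice Cyp4f17 was called higher in Model against Ctrl (0.74, adjusted P = 0.0462).

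The remaining subfamilies were low or not detected. Cyp2u1, a fatty acid hydroxylase, was at 5.46 to 7.01 CPM in Ctrl and 8.72 to 14.3 CPM in Model (0.91 ± 0.27, adjusted P = 0.0161), a call lost without Ctrl 3 (adjusted P = 0.0665) or Model 1 (0.067) and with the 9 mice (0.119). Cyp2f2, Cyp2s1 and Cyp4v3 were tested and not called in either comparison, with log2 fold changes of 0.41 ± 0.48, 0.36 ± 0.21 and 0.20 ± 0.32 in Model against Ctrl. Cyp2b10, known as a target of the receptor CAR, had 7, 8, 6 and 46 counts in Ctrl, 0 in each Model mouse and 0, 2, 0 and 0 in YHY, and was too low to be tested by edgeR with its filter, while DESeq2 and the fit without a filter tested it and called it in Model against Ctrl. The highest counts were 19 for Cyp2t4, 7 for Cyp4x1, 4 for the vitamin D hydroxylase Cyp2r1 and 2 for Cyp2ab1, while Cyp2g1 and Cyp2w1 had none.

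YHY was compared with Model to ask what the decoction moved in diabetic kidney. Cyp2d22 and Cyp4f17 were higher in YHY, 2 of 31 tested members beside 5.63% of all genes tested, and 29 were not called. By edgeR's quasi-likelihood test 0 members were lower, beside 7.62% of all genes; at an unadjusted P under 0.05 the counts were 4 higher and 4 lower, and DESeq2 called 2 higher and 2 lower (Cyp2a4 and Cyp2c23). Without YHY 4, Cyp2a5, Cyp2c23 and Cyp2j5 were called lower. The median log2 fold change of the members was 0.20, beside 0.02 for all genes tested. The 2 comparisons share the Model mice, so their values are not independent. Of the 5 members lower in Model than Ctrl edgeR called none in YHY against Model, where their log2 fold changes were -0.67 for Cyp2e1, -0.61 for Cyp2a4, -1.17 for Cyp2j5, -0.35 for Cyp2j11 and -0.24 for Cyp4a12a; the last turned to values between 0.00487 and 0.0459 without Model 1, YHY 1 or YHY 3.

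Promoters are shown for the members among the 12 most abundant that were lower in Model, chosen after their values were seen. The sequences come from a set of RefSeq promoters (build GRCm38.p6). By symbol, 52 of the 68 members were found in that set, and Cyp4a12a was not. The 300-base windows around the start were searched on both strands for AGGTCA, the half-site of receptors such as PPAR alpha and HNF4A, and for its direct repeat AGGTCANAGGTCA. Capitals mark the half-site, which appears as TGACCT where it lies on the other strand:
Cyp2e1, chr7:140763569-140763868, plus strand: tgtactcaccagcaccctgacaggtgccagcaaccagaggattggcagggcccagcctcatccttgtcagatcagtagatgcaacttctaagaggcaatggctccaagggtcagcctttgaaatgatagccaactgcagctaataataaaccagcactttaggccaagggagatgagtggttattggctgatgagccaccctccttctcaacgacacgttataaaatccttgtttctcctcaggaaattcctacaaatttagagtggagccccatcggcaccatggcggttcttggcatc
Cyp2a4, chr7:26306942-26307241, plus strand: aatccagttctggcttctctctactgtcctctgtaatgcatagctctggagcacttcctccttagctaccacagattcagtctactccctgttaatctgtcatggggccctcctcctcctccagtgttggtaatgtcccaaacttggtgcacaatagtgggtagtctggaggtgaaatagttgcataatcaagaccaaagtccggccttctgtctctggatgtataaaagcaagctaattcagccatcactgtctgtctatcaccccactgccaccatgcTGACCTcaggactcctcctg
Cyp2j5, chr4:96664070-96664369, minus strand: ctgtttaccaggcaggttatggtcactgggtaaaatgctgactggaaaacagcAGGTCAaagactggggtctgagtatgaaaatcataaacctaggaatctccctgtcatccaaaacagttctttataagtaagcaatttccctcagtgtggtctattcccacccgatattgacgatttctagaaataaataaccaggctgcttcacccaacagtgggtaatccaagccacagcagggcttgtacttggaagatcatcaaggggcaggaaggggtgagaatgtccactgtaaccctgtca
Cyp2j11, chr4:96348631-96348930, minus strand: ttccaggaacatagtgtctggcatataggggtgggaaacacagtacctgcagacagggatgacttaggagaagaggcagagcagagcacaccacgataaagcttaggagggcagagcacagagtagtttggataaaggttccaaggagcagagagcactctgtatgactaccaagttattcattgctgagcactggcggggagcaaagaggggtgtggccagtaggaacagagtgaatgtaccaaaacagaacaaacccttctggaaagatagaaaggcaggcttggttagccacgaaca

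Cyp2a4 and Cyp2j5 each held 1 half-site, and Cyp2e1 and Cyp2j11 held 0. The Cyp2a4 match lies in the last bases of its window, just after an atg, and these bases are part of its transcript. It is thus not upstream of the start, whereas the Cyp2j5 match lies near the upstream end of its window. Of all 32851 promoters listed there, 16.3% held a half-site and 0.0396% the direct repeat, which none of the 4 held. Of the 8 Cyp4a genes 3 were found in that set, Cyp4a29 with 1 half-site and Cyp4a30b and Cyp4a32 with 0. A match describes letters in this window and not a bound site.

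Of 5 genes that feed electrons to P450 enzymes 3 were lower in Model, while Cyb5r3 (-0.12) and Pgrmc1 (-0.10) were not called. The 3 were the cytochrome b5 gene Cyb5a (log2 fold change -1.35 ± 0.25, adjusted P = 0.000544), Cyb5b, whose product sits on mitochondria (-0.48 ± 0.14, adjusted P = 0.0145), and the reductase Por (-0.63 ± 0.21, adjusted P = 0.0266). The median log2 fold change of all 5 was -0.48. Cyb5a had 971, 1068, 897 and 535 CPM in Ctrl, 484, 252, 364 and 262 CPM in Model, and 169, 204, 198 and 253 CPM in YHY mice, with Ctrl above all others. Cyb5b was not called without Model 2 (adjusted P = 0.0502), nor Por without Ctrl 2 or Model 2, 3 or 4 (adjusted P 0.05 to 0.0773), so that 1 of the 5 was lower without Model 2. Cyb5b was lower again in YHY against Model (-0.97 ± 0.14, adjusted P = 0.000872), the list's median being -0.50, and Cyb5a was called lower there by DESeq2 (adjusted P = 0.0213), without a filter (0.0249), and without Ctrl 4 (0.0353), Model 2 (0.0487) or YHY 4 (0.0397). DESeq2 called 3 of the 5 lower in YHY and edgeR 1, or 2 without Ctrl 4, Model 4 or YHY 4 and 3 without Model 2. Of 10 genes of haem synthesis and breakdown 5 were lower in Model, among them Cpox (-1.09), Hmox2 (-1.04), Hmox1 (-0.81) and Fech (-0.48), and the median was -0.50. Hmox1 was not called without Model 2 or 4, nor Fech without Model 4 (highest adjusted P 0.0686 and 0.0626). Cpox was lower in YHY against Model (-0.82, adjusted P = 0.0178), though not without Model 3 (adjusted P = 0.0513).

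The enzymes beside the P450s in arachidonic acid metabolism moved both ways. Ephx2, the soluble epoxide hydrolase that breaks down the epoxides, had 453, 443, 459.9 and 248 CPM in Ctrl, 177, 116, 164 and 124 CPM in Model, and 84.5, 128, 104 and 185 CPM in YHY mice, with Ctrl above the rest (-1.47 ± 0.25, adjusted P = 0.000364). The microsomal Ephx1 was higher in Model (0.72 ± 0.20, adjusted P = 0.00977), though not without Ctrl 3 (adjusted P = 0.052), and the third tested gene of that list was not called. By edgeR 0 of the 3 were higher and 0 lower in YHY against Model, with 1 higher and 0 lower at an unadjusted P under 0.05 and 0 and 0 by DESeq2, and Ephx1 was called higher without YHY 4 (adjusted P = 0.0478). Of 17 other enzymes and receptors of the pathway 3 were higher in Model, Ltc4s (2.30), Ptgs2 (1.56) and Ptgis (0.84), and 3 lower, the lipoxygenase Alox15 (-5.29), Ptges3 (-1.28) and Hpgd (-0.70), with a median of 0.09. Alox15 was at 36.0 to 56.8 CPM in Ctrl and at 1.00 to 1.35 CPM in Model mice. Ptgis was not called without Ctrl 1, Ctrl 3, Model 2 or Model 3 (highest adjusted P 0.126), nor Hpgd without Ctrl 3, Ctrl 4, Model 1 or Model 3 (highest adjusted P 0.0907). Alox12 was higher (1.18 ± 0.21, adjusted P = 0.00317) and Ptges2 lower (-0.66 ± 0.15, adjusted P = 0.0104) in YHY against Model.

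Receptors and factors known to act on P450 genes were also counted. Of 16 tested, 3 were higher in Model, the xenobiotic receptor Nr1i2 (1.83 ± 0.37, adjusted P = 0.00122), the bile acid receptor Nr1h4 (1.32 ± 0.30, adjusted P = 0.00273) and Cebpb (1.05), and 5 were lower, among them the glucocorticoid receptor Nr3c1 (-0.71 ± 0.14, adjusted P = 0.00125), Ppard (-1.30), Nr1h3 (-0.69) and Rxra (-0.47). The median was 0.04. In YHY against Model, Hnf4a (-0.94 ± 0.21, adjusted P = 0.009), Cebpa (-0.93 ± 0.20, adjusted P = 0.00934) and Rxra (-0.62) were lower and Arnt higher (0.55 ± 0.16, adjusted P = 0.0355), with a median of -0.18. Hnf4a had 440.3, 449, 439.7 and 404 CPM in Ctrl, 426, 387, 526 and 461 CPM in Model, and 175, 248, 171 and 343 CPM in YHY mice, the YHY mice lying below all others. Rxra was not called in Model against Ctrl without Ctrl 2, Model 2 or Model 4 (highest adjusted P 0.111), nor in YHY against Model without Model 1, Model 3, YHY 1 or YHY 3 (highest adjusted P 0.0849). Arnt was not called without any 1 Model mouse, YHY 2 or YHY 4 (highest adjusted P 0.0992). Ppara itself was at 2.52 to 10.3 CPM and not called in either comparison.

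Cyp4a10 and Cyp4a14 are known targets of PPAR alpha, and its targets outside the P450 genes moved both ways. Of 13 tested, 6 were lower in Model, among them Ehhadh (-2.45 ± 0.34, adjusted P = 6.5e-05), Acadm (-1.70 ± 0.16, adjusted P = 2.85e-06), Acaa1b (-1.12), Acot1 (-1.10) and Plin2 (-1.05), and 3 were higher, among them Angptl4 (1.43 ± 0.30, adjusted P = 0.00171) and Acot2 (1.06 ± 0.21, adjusted P = 0.00107), with a median of -0.62. Acot1 was not called without Ctrl 4 or Model 1, 3 or 4 (highest adjusted P 0.131). In YHY against Model, Pdk4 (2.58 ± 0.38, adjusted P = 0.000884), Angptl4 (0.94 ± 0.30, adjusted P = 0.0496) and Plin2 (0.74 ± 0.23, adjusted P = 0.0443) were higher, and the median was 0.31. DESeq2 called 5 higher, and edgeR 6 without YHY 1, Ehhadh among them (0.82, adjusted P = 0.0436), and 1 without Ctrl 3, any 1 Model mouse, YHY 2 or YHY 4. Pdk4 had 9.08, 11.2, 4.11 and 9.32 CPM in Model and 28.0, 29.2, 76.2 and 68.1 CPM in YHY mice, YHY 3 and YHY 4 being highest. Angptl4 was not called without Ctrl 3, any 1 Model mouse or YHY 2, 3 or 4 (highest adjusted P 0.114), nor Plin2 without any 1 Ctrl or Model mouse, YHY 2 or YHY 4 (highest adjusted P 0.123), with a replicate block (0.0813) or with the 8 mice compared (0.0647).

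Androgen-responsive kidney genes were lower in Model, 4 of 4, with a median of -2.04. The most abundant, Kap, summed with the rest of the list to 45534, 58902, 47389 and 20570.5 CPM in Ctrl, 7082, 3584.5, 6083 and 4237 CPM in Model, and 3593, 6033, 1854 and 5253 CPM in YHY mice. Ctrl 4 was the lowest Ctrl mouse and still stood above all db/db mice. It was the lowest Ctrl mouse also for Cyp2e1, Cyp2j5 and Cyp4a12a. The same held for Cyp2a4 (571 CPM), Cyp2j11 (96.0), Cyp2c23 (27.9), Cyp2j7, Cyp2j8, Cyp2j9, Cyb5a (535) and Ephx2 (248). For Cyp4a10, Cyp4a14 and Cyp4a31 it was the highest. The log2 fold changes were -7.05 ± 0.78 for Slco1a1 (adjusted P = 1.25e-05), -3.06 ± 0.41 for Kap (adjusted P = 5.09e-05), -1.02 for Odc1 and -0.89 for Gusb, and Odc1 was not called without Ctrl 1 or Model 2 (adjusted P 0.0573 and 0.0628). In YHY against Model edgeR and DESeq2 each called 0 of the 4, as did an unadjusted P under 0.05. The part of these genes, and of the cell markers given next, in the values of the P450 members was not tested.

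Of the 31 genes of other P450 families 13 were tested, and 6 were higher in Model, Cyp27b1 (3.09, and 3.67 without Ctrl 3), Cyp17a1 (3.21), Cyp26b1 (2.18, and 3.06 without Ctrl 4), Cyp46a1 (2.17 ± 0.37, adjusted P = 0.000364), Cyp27a1 (1.33 ± 0.22, adjusted P = 0.00024) and Cyp1b1 (0.98), with a median of 1.30. The 3 lower were Cyp7b1, an oxysterol hydroxylase (-5.68 ± 0.22, adjusted P = 3.95e-10), Cyp51, of cholesterol synthesis (-3.06 ± 0.18, adjusted P = 3.53e-08), and Cyp20a1 (-0.94), the last not called without Ctrl 4 or Model 3 (adjusted P 0.0636 and 0.0563). Cyp7b1 had 369, 307, 364 and 388 CPM in Ctrl, 6.86, 6.76, 5.62 and 8.59 CPM in Model, and 9.77, 14.0, 11.6 and 7.59 CPM in YHY mice. Its level thus lay far lower in all db/db mice. In YHY against Model, Cyp51 was lower (-1.57 ± 0.17, adjusted P = 0.000263) and Cyp7b1 higher (0.62 ± 0.19, adjusted P = 0.0415), which was lost without Ctrl 1, 3 or 4, Model 1, 2 or 3, or YHY 1, 2 or 3 (highest adjusted P 0.138).

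Markers of the cells in the tissue were counted the same way. Of 7 proximal tubule markers 3 were lower in Model, Slc7a13 (-2.33), Lrp2 (-1.68) and Slc27a2 (-0.53), with a median of -0.53, and Slc7a13 was lower in YHY against Model (-1.11), though not with the 9 mice behind the authors' means (adjusted P = 0.0582). Slc7a13, the cystine transporter of the late proximal tubule, was at 438 to 902 CPM in Ctrl and 116 to 181 CPM in Model mice, and Slc27a2, the most abundant marker of that list, was not called without Ctrl 2, Ctrl 3, Model 2 or Model 4 (highest adjusted P 0.0776). Among markers of other segments, Umod (-2.86) and Aqp2 (-1.18) were lower and Slc12a3 (1.33) higher in Model, Aqp2 not by DESeq2 (adjusted P = 0.0774) nor without Ctrl 1, Ctrl 4 or Model 2, 3 or 4 (highest adjusted P 0.139), and Atp6v1g3 was lower in YHY against Model (-1.13). Nphs1 (1.86) of 3 podocyte markers and Cd68 (1.05) of 3 macrophage markers were higher in Model, C1qa (-1.08) lower, and the endothelial markers Pecam1 (0.08), Kdr (0.13) and Emcn (-0.16) were not called. Liver also expresses many members at high level. Of 6 hepatocyte markers Ttr was higher (2.33), the most abundant was Apob at 39.1 to 132 CPM, Cps1 was at 0.0644 CPM or less in each mouse, and their sum was 94.99 to 146 CPM in Ctrl, 109.8 to 149 in Model and 50.7 to 149 in YHY mice. Of 5 adrenal markers Star was the most abundant and higher (1.32), while Cyp11b2 was at 0 in each mouse. The 5 adipocyte markers summed to at most 2.57 CPM in a mouse, the most abundant being Cidec.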

How the data were processed

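PolyA RNA of 12 mouse kidneys was sequenced, 1 library a mouse. The authors deposited raw counts of each gene with its gene_length in bases and GRCm39 position, and tables of 2 comparisons with group means, a normalised signal that the authors made by scaling each library. Those means matched Ctrl 1, 3 and 4, Model 2, 3 and 4 and YHY 1, 2 and 3. The 12 per-mouse columns of those tables and the authors' own test results were not used. The submitters' processing notes name FastQC 0.11.9, Trimmomatic 0.39, HISAT2 2.2.1, SAMtools 1.12, featureCounts 2.0.1, DESeq2 1.34.0 and R 4.1.2.

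Counts were fitted in R 4.3.3 with edgeR 4.0.16 and limma 3.58.1 (TMM factors of 0.720 to 1.35, filterByExpr, two-sided quasi-likelihood tests in 1 fit of 3 groups). P values of the 17431 tested genes were adjusted together by the Benjamini-Hochberg method, and a gene was called at an adjusted P under 0.05 with no fold limit. The standard error was the size of the log2 fold change over the root of F. The fit was also run on simulated counts, drawn from 1 mean profile with 200 genes changed, as many raised as lowered. The shift in mitochondrial share between the groups was not simulated. That run therefore says nothing about the choice of scaling. Tables were read with data.table of version 1.17.8. Figures were drawn by matplotlib (3.10.9) from tables held in pandas (2.3.3) and numpy (2.4.6), under Python 3.11.15.

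Alternatives were DESeq2 1.42.0, library size alone, upper-quartile factors, mitochondrial transcripts left out, no filter, at least 10 counts in every mouse, the 8 mice compared, the 9 mice of the authors' means, a replicate block, each mouse left out, a fold change over 1.2 with an unadjusted P under 0.05, and members of a subfamily summed. Sums under other scalings were added after seeing the data. The replicate block treated mice of the same number as a set, although the labels give no pairing. In Model against Ctrl 2 of 8 mice had deviations from their group means closest to those of the mouse with their own number. In YHY against Model it was 1 of 8. Of counts from 2 to 11, 74.2 to 78.9% a mouse were even, and replicates differed by more than counting error (chi-square over degrees of freedom 18.8 to 154). A count of 0 allows up to 3 counts, 0.0683 to 0.166 CPM, for counting error alone; if both reads of a pair were counted, which was not tested, these limits would be higher.

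Members named were the 12 with the highest mean CPM per kilobase, each called member, and for other subfamilies the member with most counts. For each pathway list the 2 called genes with the smallest P in each direction and comparison were named. Other genes named, markers included, were chosen after their values were seen. Members and lists were chosen with earlier results of these data known. Proteins were not used here, and some genes of the lists are not reported here.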

Additional observations from a re-analysis of the deposited data

Results flagged for a closer look

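In 11 of 99 groups of 4 mice looked at, 1 mouse lay far from the others, its gap to the nearest being above Dixon's critical value; chance gives about 1 in 20 groups. That rate does not apply to the 4 of them in which the other mice were all at 0, where any count gives such a gap. Ctrl 4 stood above the other Ctrl mice for Cyp4a14 (266 CPM against 3.46 to 11.3), Cyp4v3 (6.12 against 3.55 to 3.93 CPM), Cyp2b10 (1.05 against 0.147 to 0.25 CPM) and Cyp2r1 (0.0911 CPM, the others at 0). Model 1 was the Model mouse with counts of Cyp2ab1 (0.0644 CPM) and Cyp2r1 (0.129 CPM), and YHY 2 the YHY mouse with counts of Cyp2b10 (0.111 CPM); these last 3 values rest on 2 to 4 counts. Ctrl 2 had the lowest total of the Ctrl libraries (29632718 counts against 32677732 to 33276634) and the highest mitochondrial share (22.7% against 18.4 to 18.6%). YHY 2 stood above the other YHY mice for Cyp4f14 (1.88 against 0.0744 to 0.271 CPM) and had the highest mitochondrial share of the YHY libraries (64.6% against 53.8 to 54.6%).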

How the results depend on the processing

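In Model against Ctrl 12 members were higher and 5 lower. Library size alone gave 6 and 8, beside 1547 higher and 5667 lower of all genes tested, and subfamily sums 3 higher and 3 lower. Leaving out 1 mouse gave 9 to 12 higher and 5 to 6 lower. In YHY against Model 2 were higher and 0 lower by edgeR. The members higher were 4 at an unadjusted P under 0.05 with a fold change over 1.2, 1 with the 9 mice behind the authors' means, 0 by subfamily sums, and 1 to 2 without 1 mouse. The members lower were 2 by DESeq2, 1 each with library size alone, upper-quartile factors or at least 10 counts in every mouse, 4 without a filter, 3 with the 9 mice, 4 at the fold change and unadjusted P, and 0 to 3 without 1 mouse. Among all genes DESeq2 called 1434 higher and 1689 lower in YHY against Model. The fold change and unadjusted P gave 2429 and 2559. A reversed sign was seen for log2 fold changes that were not called. With library size alone the Model against Ctrl values were Cyp2f2 -0.0733, Cyp2s1 -0.054, Cyp4a10 -0.222, Cyp4v3 -0.217, Alox12 -0.322, Hnf4a -0.373 and Cebpa -0.416. With the 9 mice they were Cyp4a10 -0.143, Cyp4a14 -0.0964, Cyp4v3 -0.103, Alox12 -0.172 and Cebpa -0.0877, and those in YHY against Model Cyp2d26 -0.186, Cyp2f2 -0.0393, Cyp2j6 -0.00719, Ptges3 0.0446, Ltc4s -0.0666 and Nr1i2 -0.368. Arnt was 0.00898 in Model against Ctrl with upper-quartile factors, Cebpa -0.0104 without a filter and -0.00339 with the 8 mice, and Cyp2j7 -0.0441 in YHY against Model with a replicate block. Leaving out 1 mouse gave ranges across 0 in Model against Ctrl for Cyp4a10 -0.066 to 0.796, Cyp4v3 -0.0673 to 0.425, Alox12 -0.118 to 0.24, Hnf4a -0.0301 to 0.119 and Cebpa -0.101 to 0.0662, and in YHY against Model for Cyp2d26 -0.526 to 0.512, Cyp2j7 -0.402 to 0.402, Cyp2s1 -0.0906 to 0.285, Cyp4a12a -0.595 to 0.0459, Ptges3 -0.232 to 0.071, Ltc4s -0.0201 to 0.242, Nr1i2 -0.384 to 0.38, Cyp4f14 -0.501 to 1.49 and Slco1a1 -1.59 to 0.0267. Summed, the Cyp2d members gave 0.153 in Model against Ctrl (-0.255 with library size alone, chosen after seeing the data) and the Cyp4a members -0.279, opposite to Cyp2d9 and Cyp4a10. Among other called genes, library size alone lost Ephx1, Ptgis, Acot2, Cd68 and Cyp1b1 in Model against Ctrl and Ptges2, Arnt, Plin2 and Cyp7b1 in YHY against Model, and upper-quartile factors lost Cyb5b, Hpgd, Rxra, Slc27a2 and Aqp2 in Model against Ctrl. The 9 mice lost Ephx1, Por, Odc1 and Slc27a2 in Model against Ctrl and Arnt, Angptl4, Plin2 and Slc7a13 in YHY against Model. DESeq2 lost Aqp2, no filter Slc27a2 and Arnt, at least 10 counts in every mouse Slc27a2, the 8 mice compared Plin2, Cyp7b1 and Rxra in YHY against Model, and a replicate block Rxra in Model against Ctrl and Plin2 and Cyp7b1 in YHY against Model. The cause was not tested. At this depth 11 members had no count and 26 had too few to be tested.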
